A study of Mus musculus with 35 samples.

Results

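The nuclei described here were mature oligodendrocyte nuclei of the mouse hippocampus that carried RNA of C4b, Il33 or Cdkn1a. They were chosen by counts in all 14 single-nucleus libraries. A barcode with at least 500 detected genes was taken as a mature oligodendrocyte where St18, Prr5l, Mag, Mog and Ermn together gave at least 5 UMIs (unique molecular identifiers, each standing for 1 captured RNA molecule) from at least 3 of these genes and at least 0.2% of its UMIs. It also had at most 3 UMIs of the neuronal genes Snap25 and Rbfox3, none of Pdgfra, which marks oligodendrocyte precursors, and at most 1 of the microglial genes Csf1r and Inpp5d. A mature nucleus was a member where C4b, Il33 and Cdkn1a summed to at least 2 UMIs. The rule took 15220 of 34099 mature nuclei (44.6%), which were 10.7% of all 142840 barcodes. Just inside the threshold lay 5589 members with exactly 2 UMIs of the 3 genes, and just outside it lay 8355 mature nuclei with 1 UMI. A further 10524 mature nuclei had none.

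The nuclei came from hippocampi of C57BL/6 mice aged 9 months, with 3 wild-type (WT) libraries, 3 PS19, 4 CLEAR mutant (CLEAR) and 4 from the cross of both lines (CLEAR_PS19). The PS19 line expresses a mutant form of human tau from the Prnp promoter, which is active in neurons and, less strongly, in other brain cells. In CLEAR mice, as far as the study is known, the CLEAR element (the motif that TFEB binds) of Atp6v1h was mutated; Atp6v1h makes 1 part of the V-ATPase, the pump that acidifies lysosomes. Each nuclei group held 1 female library and otherwise males, and bulk RNA-seq of hippocampus covered WT (6 and 5 samples) and PS19 (6 and 4 samples) at 4 and 9 months, with no sex given. Libraries were the unit of every test, and since the labels do not say that each is a separate animal, p-values measure the spread between these libraries, which may be technical in part.

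Oligodendrocytes wrap axons in myelin. C4b encodes complement component C4, whose cleavage tags surfaces for removal by phagocytes. Il33 encodes an alarmin, a cytokine held in the nucleus and released by damaged cells, which mature mouse oligodendrocytes make under normal conditions. Cdkn1a encodes p21, an inhibitor of the cyclin-dependent kinases and a target of the transcription factor p53. In mouse models of neurodegeneration and demyelination, oligodendrocytes with raised Serpina3n, C4b and class I major histocompatibility (MHC-I) genes have been described as disease-associated. In the annotation of build GRCm38 (GENCODE M21), C4b lies at chr17:34728380-34743882 and Il33 at chr19:29925114-29960718, and Cdkn1a at chr17:29090976-29100727 overlaps another gene on the opposite strand. C4b has a near-identical neighbour, C4a (chr17:34809092-34823464), so the division of reads between these copies is uncertain, although C4a was at 0 to 0.79 CPM (UMI counts scaled to 1 fixed total in every library) in the summed mature nuclei.

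The oligodendrocyte identity of the members was plain, and it was fixed by the rule. Summed members held Mog at 829 to 1387 CPM, Mag at 720 to 1234 CPM and St18 at 3786 to 5390 CPM over the 14 libraries. The 3 genes were seldom all counted in 1 nucleus. Il33 was present in 14109 members, C4b in 6730 and Cdkn1a in 1094, and 7991 members had Il33 only. Another 5223 had C4b and Il33 without Cdkn1a, 912 had C4b only, and 451 had all 3 genes. Of the rule's UMIs in members, 42082 were from Il33, 13330 from C4b and 1614 from Cdkn1a. At these depths a gene without a UMI in a nucleus is not shown to be absent from it, so these counts do not settle whether the members are 1 state, and the nuclei are called here by their genes.

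Nuclei libraries held 45090232 to 96045023 UMIs over 7540 to 16070 barcodes with at least 500 genes, and bulk libraries 9630430 to 17182605 counts. Members were deeper than other mature nuclei (library medians 1446 to 3044 against 1274 to 2566 UMIs), so comparisons within a library used nuclei matched on depth. Correlations of excitatory neuron profiles put the libraries in 3 sets. Set 1 held replicates 1 and 2 of WT and of PS19 and replicate 3 of both CLEAR groups, set 2 the 4 female libraries, so that its values are also those of the females, and set 3 replicates 1 and 2 of both CLEAR groups. Libraries shared 10 to 64 barcodes a pair, of which 0 to 3 were members in both. At least 2 UMIs of the 3 genes were found in 0.47% to 1.68% of excitatory neuron nuclei, which should lack them, at library median depths of 7523 to 15031 UMIs. Microglia gave 0% to 2.06% (medians 1139 to 2617 UMIs), and astrocytes, which are known to express C4b, 5.97% to 40.7% (2204.5 to 4496 UMIs).

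Members made up more of the mature oligodendrocytes in the PS19 than in the WT libraries. The share was 33.0%, 34.7% and 27.2% in the WT libraries and 66.5%, 71.1% and 47.4% in the PS19 libraries. It was 36.9%, 38.1%, 38.7% and 34.2% in CLEAR and 43.0%, 34.3%, 65.2% and 31.5% in CLEAR_PS19. Every PS19 library lay above every WT and CLEAR library, whereas CLEAR_PS19 overlapped all the other groups, with library 3 at the PS19 level and libraries 2 and 4 within the range of WT. The group means were 31.6 ± 3.95% (SD, n = 3) in WT mice, 61.7 ± 12.6% (n = 3) in PS19 mice, 37.0 ± 1.98% (n = 4) in CLEAR mice and 43.5 ± 15.2% (n = 4) in CLEAR_PS19 mice. PS19 minus WT was 30.1 percentage points (exact permutation p = 0.1, the smallest that 3 against 3 libraries allow, adjusted 0.19). CLEAR_PS19 minus CLEAR was 6.53 points (exact permutation p = 0.6). Over both CLEAR genotypes the transgene difference was 18.3 percentage points (exact permutation test within CLEAR genotype, two-sided p = 0.03, adjusted over 3 tests 0.09). Within library sets it was 16.6 points (exact permutation p = 0.049, adjusted 0.083). With replicate number as a block its exact permutation p was 0.078 (adjusted 0.156). The CLEAR difference over both transgene genotypes was −6.41 points (exact permutation p = 0.32). By set, PS19 minus WT was 35.0 points in set 1 and 20.3 in set 2, and CLEAR_PS19 minus CLEAR was 26.5 in set 1, −2.69 in set 2 and 1.16 in set 3.

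The share depended on depth and on Il33. Mature nuclei with at least 1500 UMIs were then thinned to that number and shallower ones were left out. This kept 724 of 2115 nuclei in CLEAR_PS19 4, 1938 of 3377 in CLEAR_PS19 2 and more than that share in the other libraries (up to 2318 of 2389 in CLEAR_PS19 3), so it describes the deeper nuclei. WT gave 21.4%, 18.6% and 18.9%, PS19 47.5%, 50.6% and 38.4%, CLEAR 27.6%, 28.4%, 23.4% and 25.4%, and CLEAR_PS19 31.7%, 29.6%, 42.6% and 34.4%. On this scale transgene libraries lay above all those without it, and the difference was 17.1 points (exact permutation p = 0.00143, the smallest this design allows, adjusted 0.0043; within library sets 15.85 points, adjusted 0.021). The transgene difference was smaller with the CLEAR mutation by 17.5 points on the thinned scale (exact permutation, adjusted p = 0.0073) and by 10.2 points within library sets (adjusted p = 0.042). The within-set value rests on 1 CLEAR and 1 CLEAR_PS19 library in each of sets 1 and 2, since set 3 holds no library without the mutation. Thinned CLEAR minus WT was 6.60 points without overlap (exact permutation p = 0.029, adjusted 0.057). Thinned CLEAR_PS19 minus PS19 was −10.9 points with overlapping ranges (exact permutation p = 0.086, adjusted 0.1). On all UMIs the CLEAR-by-transgene term was −23.5 points (exact permutation, adjusted p = 0.103). With Il33 left out of the sum, the share was 1.5%, 0.5% and 0.7% in WT mice, 36.5%, 33.9% and 16.4% in PS19 mice, 3.3%, 3.2%, 0.8% and 3.4% in CLEAR mice and 9.1%, 6.3%, 26.6% and 4.9% in CLEAR_PS19 mice. By C4b and Cdkn1a alone, then, few nuclei without the transgene qualified, and every transgene library lay above all libraries without it (difference 18.6 points, exact permutation, adjusted p = 0.0043). With C4b left out instead, the difference was 8.83 points (exact permutation p = 0.12). The within-set values of the thinned share were added after the data were seen.

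**Figure D1:**
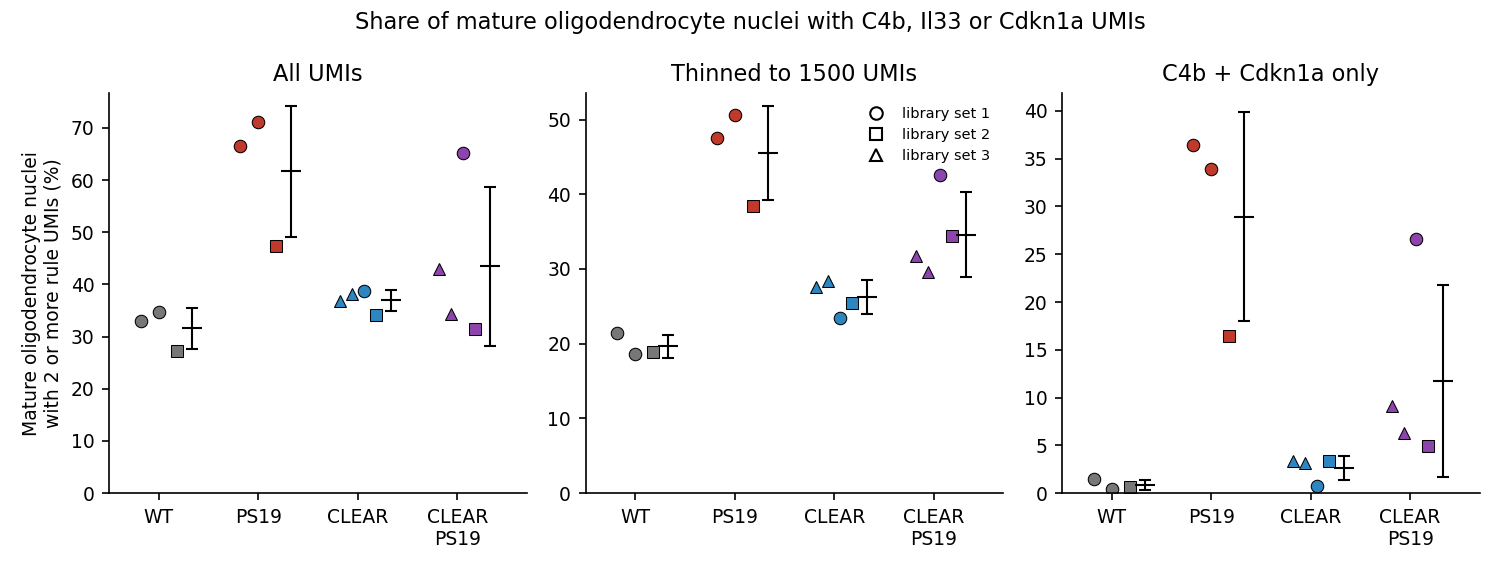
Percent of mature oligodendrocyte nuclei (y axis) with at least 2 UMIs of the rule's genes in each of the 14 libraries by genotype (x axis), from all UMIs, from nuclei of at least 1500 UMIs thinned to that number and with Il33 left out; points are libraries, marker shape gives the library set, and bars give the mean and SD. PS19 libraries lie above all WT and CLEAR libraries in each panel (47.4% to 71.1% from all UMIs) with CLEAR_PS19 3 among them, and WT and CLEAR libraries fall to 3.4% or less once Il33 is left out.

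The makeup of the members shifted from Il33 alone toward C4b with the transgene. Nuclei with Il33 only were 86.2%, 94.9% and 87.6% of WT members and 75.1%, 76.9%, 89.6% and 75.5% of CLEAR members. They were 21.6%, 23.9% and 38.7% of PS19 members and 60.1%, 62.5%, 31.6% and 64.9% of CLEAR_PS19 members. No transgene library reached the level of any library without it. C4b was present in 10.2 ± 4.60% (SD, n = 3) of WT members, 66.7 ± 6.98% (n = 3) of PS19 members, 20.1 ± 6.73% (n = 4) of CLEAR members and 42.1 ± 13.9% (n = 4) of CLEAR_PS19 members. Among the mature nuclei deep enough to be thinned to 1500 UMIs, members or not, a C4b UMI was found in 3.10 ± 1.79%, 36.6 ± 6.60%, 7.46 ± 2.87% and 20.4 ± 7.37% of WT, PS19, CLEAR and CLEAR_PS19 nuclei. That transgene difference was 23.2 points (exact permutation, adjusted over 9 tests p = 0.0064; 21.7 points within library sets). It was smaller with the CLEAR mutation by 20.5 points (exact permutation, adjusted p = 0.031), a difference that did not hold within library sets (−12.9 points, unadjusted p = 0.083). The same share for Il33 rose by 5.59 points with the transgene (exact permutation, adjusted p = 0.031; 4.97 points within library sets). WT nuclei stood at 46.8% and PS19 nuclei at 56.7%, against 52.2% for CLEAR and 53.4% for CLEAR_PS19 nuclei, and the rise was smaller with the CLEAR mutation by 8.66 points (exact permutation, adjusted p = 0.0098), which did not hold within library sets (−6.25 points, unadjusted p = 0.083).

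Summed over all mature nuclei of a library, members or not, C4b and Cdkn1a rose with the transgene. C4b was at 35.6, 10.4 and 32.6 CPM in WT mice, 439, 367 and 312 in PS19 mice, 75.8, 75.4, 24.3 and 77.8 in CLEAR mice and 154, 133, 283 and 153 in CLEAR_PS19 mice. All transgene libraries lay above all others. Its log2 fold change with the transgene, averaged over CLEAR genotypes, was 2.67 (SE 0.30; edgeR quasi-likelihood test, adjusted p = 0.00073), in a fit that called 1.05% of 14083 genes. Cdkn1a was at 0.60, 0.27 and 0.26 CPM in WT mice, 59.0, 75.0 and 13.0 in PS19 mice, 0.59, 0.99, 1.12 and 4.67 in CLEAR mice and 14.2, 7.86, 38.1 and 19.9 in CLEAR_PS19 mice. It too did not overlap between libraries with and without the transgene (log2 fold change 5.12, SE 0.62; edgeR adjusted p = 0.00091). Il33 was the most abundant of the 3 genes in WT and moved least, at 523, 468 and 500 CPM in WT mice, 685, 807 and 650 in PS19 mice, 561, 584, 583 and 595 in CLEAR mice and 583, 545, 677 and 733 in CLEAR_PS19 mice. PS19 lay above WT and CLEAR throughout, and CLEAR_PS19 overlapped CLEAR. The Il33 log2 fold change of 0.33 (SE 0.09) did not pass in edgeR (adjusted p = 0.11) and passed in DESeq2 (adjusted p = 0.014) and with library set as a covariate (edgeR adjusted p = 0.010). None of the 3 passed for the CLEAR mutation, in a fit that called 0.0071% of genes (edgeR log2 fold changes 0.11, 0.03 and 0.44 for C4b, Il33 and Cdkn1a). The CLEAR-by-transgene term for C4b was −2.30 (edgeR unadjusted p = 0.0014, adjusted p = 1).

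**Figure D2:**
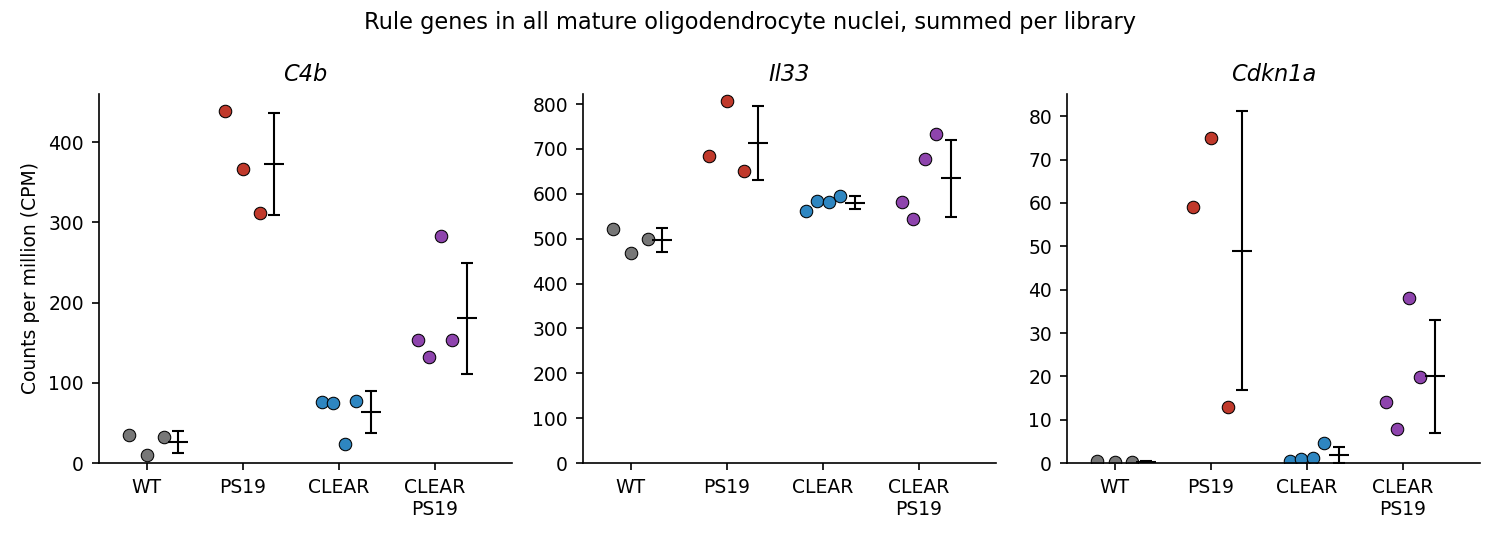
CPM of C4b, Il33 and Cdkn1a (y axis) in the summed mature oligodendrocyte nuclei of each library by genotype (x axis); points are libraries and bars give the mean and SD. C4b and Cdkn1a separate libraries with the transgene from those without it, while Il33 is at 468 CPM or more in every library.

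Whether the 3 genes met in the same nuclei was measured by comparing the level of each gene between nuclei chosen by at least 2 UMIs of the other genes and depth-matched mature nuclei of the same library. C4b was at 1.72 UMIs per 10000 in nuclei chosen on Il33 and Cdkn1a and 1.40 in matched nuclei, and higher in 11 of 14 libraries (exact sign-flip permutation test, p = 0.007, adjusted over 3 genes 0.022). Il33 was at 6.60 per 10000 in nuclei chosen on C4b and Cdkn1a and 5.49 in matched nuclei, and higher in 12 of 14 (exact permutation p = 0.018, adjusted 0.027), while Cdkn1a was at 0.164 against 0.185 (higher in 5 of 14, exact permutation p = 0.19). In the 7 libraries with the transgene the C4b and Il33 differences were above 0 in 7 of 7, and in the 7 without it C4b was at 0.481 against 0.480 and Il33 at 5.29 against 4.78 (exact permutation, adjusted p = 0.94 for both). Il33 did not pass when called doublets were left out (adjusted p = 0.087), against all other mature nuclei (0.672 per 10000 higher, 10 of 14 libraries, exact permutation, adjusted p = 0.12), or without WT 3, CLEAR_PS19 1 or CLEAR_PS19 4 (adjusted p = 0.054, 0.0502 and 0.054). In the 7 transgene libraries, nuclei with C4b held 7.62 ± 0.81 Il33 UMIs per 10000 and matched nuclei without C4b 6.05 ± 0.62 (mean ± SD over libraries). Il33 was higher beside C4b in 7 of 7 libraries, a ratio of 1.26 (exact sign-flip permutation test p = 0.0156, adjusted 0.047, on 6351 nuclei). Nuclei with Cdkn1a did not differ measurably in C4b (2.36 against 2.39 per 10000, higher in 2 of 7 libraries, exact permutation p = 0.95) or in Il33 (6.87 against 6.73, higher in 4 of 7, exact permutation p = 0.61, on 1211 nuclei). In PS19 1, PS19 2 and CLEAR_PS19 3 the nuclei with C4b still held more UMIs than their matches (levels are per UMI). Neither gene was measurably higher beside Cdkn1a. These pairs were compared after the data had been seen.

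Members were then compared with depth-matched other mature nuclei in all 14 libraries, leaving aside the 3 genes of the rule. Part of the disease-associated, MHC-I and cytokine-signalling lists was higher in members, and most tested markers of younger oligodendrocytes were lower. The edgeR test called 601 genes higher and 575 lower of 12838 (9.16%; 4.68% higher and 4.48% lower; median log2 difference over all genes 0.012), DESeq2 285 higher and 323 lower, and edgeR without set 3 281 higher and 331 lower. Of 21 tested genes of the disease-associated oligodendrocyte list, 12 were higher and 0 lower (median 0.405), as were 3 of 7 MHC-I genes (median 0.442) and 8 of 15 genes of the cytokine-signalling list (median 0.129). Serpina3n, a secreted protease inhibitor of the acute phase, was at 17.0 CPM in members and 7.80 in other nuclei and higher in 10 of 14 libraries (log2 difference 1.18). Bcl3, a cofactor of NF-kB, was at 17.1 against 6.53 CPM and higher in 14 of 14 (log2 difference 1.47). Socs3, the feedback inhibitor of STAT3 signalling, was at 6.00 against 2.15 CPM (1.45), and Stat3 itself was higher by 0.32. The MHC-I heavy chain gene H2-D1 was at 35.0 against 22.6 CPM and higher in 14 of 14 libraries (0.65; its near-identical relatives, H2-K1 among them, make its share of reads uncertain). Pvt1, a long noncoding RNA gene, was at 289 against 205 CPM (0.48, 14 of 14 libraries).

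On the higher side, the largest named differences among genes above 20 CPM were Adamtsl3, a matrix protein related to the ADAMTS proteases (log2 difference 0.84, SE 0.09; edgeR adjusted p = 4.1e-08), 7630403G23Rik (0.77), the small GTPase gene Rhoj (0.74) and the matrix protease gene Adamts1 (0.71). Of 24 tested genes of mature myelin, 9 were higher and 0 lower (list median 0.048, against 0.012 over all genes). Opalin, a paranodal membrane protein, was at 499 against 397 CPM and higher in 14 of 14 libraries (0.33), and Cnp (0.22) and Mal (0.24) differed less. The lipid carrier gene Apoe (828 against 642 CPM), the tetraspanin gene Cd9 (278 against 205 CPM) and the prostaglandin D synthase gene Ptgds (2679 against 2021 CPM) were each higher in 14 of 14 libraries. On the lower side, 4 of 5 markers of premyelinating oligodendrocytes were lower in members (list median −0.844), as were 3 of 4 precursor markers (median −0.830). Enpp6, a marker of newly forming oligodendrocytes, was at 98.6 CPM in members and 176 in others and lower in 14 of 14 libraries (−0.84; edgeR adjusted p = 4e-16). Tcf7l2, a transcription factor of differentiation, was at 65.1 against 105 CPM (−0.71), and Tnr, encoding the matrix protein tenascin R, at 44.3 against 157 CPM (−1.98). The noncoding RNA genes Gm13187 (3.65 against 45.8 CPM, −3.81) and 9630013A20Rik (30.1 against 151 CPM, −2.26) differed most, and Frmd4a (−1.45), Trio (−1.29), the guidance gene Sema5a (−1.26) and Pcdh7 (−0.91) were lower too. Bmp4 was lower by 1.58 (adjusted p = 0.0054) with very low levels (1.17 against 3.31 CPM), and without set 3 its difference was −1.14 (adjusted p = 0.14). Gpr17, at −0.88, passed in edgeR (adjusted p = 0.018) and not in DESeq2 (adjusted p = 0.24).

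Among the other lists, V-ATPase and ATF4 genes gave no call and a minority of lysosomal, p53 and interferon genes was called. Of the V-ATPase genes 0 of 19 and of the ATF4 stress-response genes 0 of 14 passed in edgeR (3 and 2 at an unadjusted p under 0.05, and 0 in DESeq2), against 5 higher and 1 lower of 29 lysosomal genes (Lamp1 0.21 and Sqstm1 0.22 higher, Mitf −0.17). Of 21 genes of the p53 list 4 were higher (Mdm2, the ubiquitin ligase that degrades p53, at 89.9 against 76.1 CPM). Interferon-response genes gave 3 of 17 higher (Xaf1, 60.8 against 46.2 CPM), and the complement list, C4b left out, 1 of 7, the secreted chaperone gene Clu, named after its values were seen. Markers of other cell types were measured beside these results. The astrocyte marker list summed to a library median of 206 CPM in members and 189 in others, and was higher in members in 4 of 14 libraries. The microglial list summed to 95.5 and 106 CPM (2 of 14) and the neuronal list to 473 and 532 CPM (7 of 14). The astrocyte gene Gfap was higher (8.89 against 4.40 CPM, adjusted p = 0.0057), and among nuclei with at most 1 UMI of the astrocyte markers its difference was 0.39 (edgeR adjusted p = 0.46). Aqp4 passed in edgeR (0.78, adjusted p = 0.042) and not in DESeq2 (adjusted p = 0.31). The part of astrocyte RNA in these 2 genes was not tested further.

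A few of these differences depended on the transgene. The difference between members and others was larger in transgene libraries for 14 genes and smaller for 7 (0.164% of 12838; edgeR), and for 6 and 0 in DESeq2. With 1 library left out the counts ran from 7 (without PS19 3) to 30 (without CLEAR 2) and from 1 (without WT 1 or WT 3) to 23 (without CLEAR 2). Trf, the iron carrier transferrin, was higher in members in 7 of 7 transgene libraries (median log2 ratio 0.209) and in 2 of 7 without it (median −0.018; interaction 0.25, adjusted p = 0.00057). Piezo2, a mechanically gated channel, was higher in 5 of 7 transgene libraries and 0 of 7 others (interaction 1.16, adjusted p = 0.0007). Neat1, a nuclear noncoding RNA, had an interaction of 0.23 (adjusted p = 0.0084). Klk6, a secreted protease made by oligodendrocytes, was higher in 6 of 7 against 2 of 7 libraries (1.57, edgeR adjusted p = 0.011, DESeq2 adjusted p = 0.061). Fbn2, a fibrillin gene, went the other way, higher in members in 2 of 7 transgene libraries and 7 of 7 others (−0.61, edgeR adjusted p = 0.027, DESeq2 adjusted p = 0.061). Dgki and Tulp4 had interactions of 0.25 and 0.24. Bmpr1b, at 2.98, did not pass without called doublets (1.68, adjusted p = 0.86).

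Members with C4b or Cdkn1a were next set against depth-matched members with Il33 only, a comparison added after the data were seen. The first kind holds the Cdkn1a members too, with or without C4b, so its differences do not belong to C4b alone. The edgeR test called 193 genes higher and 220 lower of 9068 (4.55%; 2.13% higher, 2.43% lower; median over all genes 0.008), DESeq2 128 and 143, and edgeR without set 3 89 and 117. Piezo2 was at 108 ± 66.8 CPM (SD over 14 libraries) in members with C4b or Cdkn1a and 28.7 ± 25.2 CPM in Il33-only members, and was higher in 13 of 14 libraries (log2 difference 1.84, SE 0.12; adjusted p = 4.9e-19). Masp1, a protease of the lectin pathway of complement that overlaps other genes on the opposite strand, was at 36.3 against 13.6 CPM (1.42, 12 of 14). The mitochondrial folate enzyme gene Aldh1l2 was at 59.0 against 24.9 CPM (1.21), and Cebpd, a transcription factor of the acute phase, at 32.8 against 13.7 CPM (1.13). Of the disease-associated list, 13 of 17 tested genes were higher and 2 lower (median 0.484). Klk6 was at 28.3 against 4.57 CPM and higher in 11 libraries and lower in 0 (2.51), and Serpina3n at 27.7 against 9.93 CPM (1.39, 10 of 14). H2-D1 (0.99, 49.0 against 25.7 CPM), H2-K1 (0.73) and Nlrc5 (0.96), which encodes the activator of MHC-I genes, were the 3 of 4 MHC-I genes called higher (median 0.844). H2-K1 did not pass without CLEAR_PS19 2 (0.61, adjusted p = 0.051). Stat3 (97.9 against 60.4 CPM, 0.69), Bcl3 (1.28) and Socs3 (1.40) were higher, as 4 of 13 genes of the cytokine list were. The filter on expression took in genes well counted in either kind of member. Klk6, Socs3 and Nlrc5 had few or no UMIs in Il33-only members of most libraries, so they could hardly be called lower. The list counts and medians of this comparison depend in part on that filter.

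Interferon-response genes were higher in this comparison in 3 of 6 cases (median 0.410), none of which passed every alternative. Irf9 (1.00) did not pass in DESeq2 (adjusted p = 0.16), and Ifi27 (0.52) and Herc6 (0.72) did not pass without set 3 (edgeR adjusted p = 0.071 and 0.075). Of 15 p53 genes, 5 were higher (median 0.188): Pvt1 by 0.29, Mdm2 by 0.34, Phlda3 by 0.52, Trp53inp1 by 0.64 and Eda2r by 0.61 (adjusted p = 0.047). Phlda3 was higher in 7 of 7 transgene libraries and 1 of 7 others, Mdm2 in 7 and 3, and Pvt1 in 7 and 5. The dependence of Phlda3 and Mdm2 on the transgene did not pass (edgeR adjusted p = 0.49 and 0.60). In DESeq2, Mdm2 (adjusted p = 0.10), Phlda3 (0.13) and Trp53inp1 (0.052) did not pass. Trf (1901 against 1505 CPM, 0.35), the lipocalin gene Apod (1180 against 901 CPM, 0.41) and Apoe (0.27) were higher, and so were Adamtsl3 (0.86), Rhoj (0.80), the zinc transporter gene Slc39a14 (0.80), Syne2 (0.86) and Astn2 (0.72). The glutamate receptor gene Grm7 (618 against 879 CPM, −0.60, lower in 13 of 14 libraries), 1700063D05Rik (−0.63), Grm3 (−0.19) and Ptgds (2434 against 2817 CPM, −0.24) were lower. Ptgds thus stood on opposite sides in the comparisons with other mature nuclei and within members. Gfap (12.3 against 4.98 CPM) and Aqp4 (10.9 against 2.63 CPM) were higher here, with the whole astrocyte list at 186 against 155 CPM and higher in 10 of 14 libraries. The precursor (76.4 against 49.6 CPM), T cell (6.06 against 3.78 CPM) and choroid plexus (17.2 against 10.3 CPM) lists were also higher in 10 of 14, and the microglial (109 against 92.3 CPM) in 8 of 14; their part was not tested. The part of astrocyte RNA in these differences was not tested beyond an alternative without nuclei of more than 1 astrocyte UMI. The transgene changed the difference between the 2 kinds of member for 5 genes upward and 7 downward (0.132% of 9068). Apod was among the former (interaction 0.43, edgeR adjusted p = 0.0006). Its median log2 ratio was 0.57 in transgene libraries and 0.21 in the others.

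Cdkn1a members stood apart from C4b members. In the 7 transgene libraries, members with Cdkn1a were set against depth-matched members with C4b and no Cdkn1a (20 to 419 nuclei of each kind a library), again after the data had been seen. With Cdkn1a, 9 of 12 tested p53 genes were higher and 7 of 24 myelin genes were lower. The edgeR test called 246 genes higher and 362 lower of 4122 (14.8%; 5.97% higher, 8.78% lower; median over all genes 0.038). No gene of the p53 list was lower (median 1.141). The filter on expression took in genes well counted in either kind of member. A gene near 0 in C4b members thus entered only through Cdkn1a members and could only be called higher. Ccng1 and Psrc1, at 9.97 and 9.63 CPM in C4b members, are of that kind. The count of 9 of 12 and the median of the p53 list therefore depend on this filter. Map3k20, a kinase of the ribosome stress response that overlaps other annotated genes, was at 91.3, 108 and 95.1 CPM in Cdkn1a members of PS19 and 115, 62.9, 65.8 and 102 in those of CLEAR_PS19. In C4b members it was at 16.2, 24.0, 10.4, 0, 0, 8.4 and 0 CPM in the same order. The Cdkn1a values of CLEAR_PS19 2 and 4 rest on 3 and 5 UMIs. The 2 kinds of member did not overlap in any library (log2 difference 2.58, SE 0.25; adjusted p = 4.6e-09).

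Mdm2 was at 210, 174, 133, 568, 461, 168 and 265 CPM in Cdkn1a members and 123, 110, 41.5, 83.6, 134, 89.4 and 59.8 in C4b members of the same 7 libraries. It was higher with Cdkn1a in each library, on average 283 against 91.6 CPM (1.06). Ccng1, encoding cyclin G1, was at 109 against 9.97 CPM (1.96), and Rps27l, a ribosomal protein gene induced by p53, at 61.2 against 4.96 CPM (2.22). Such means weigh each library alike, and small libraries hold few UMIs. Ccng1 had 63, 58, 13, 23, 7, 34 and 8 UMIs in Cdkn1a members and 15, 21, 0, 1, 0, 17 and 0 in C4b members. Rps27l had 22, 38, 5, 16, 8, 18 and 1 against 6, 11, 1, 0, 0, 5 and 0. The p53 targets Eda2r (88.8 against 19.8 CPM, 1.73), Phlda3 (167 against 39.0 CPM, 1.72), Psrc1 (1.95), Trp53inp1 (1.26) and the cell death gene Bax (119 against 33.5 CPM, 1.22) were higher as well. Outside that list, Tnfrsf12a, the receptor of the cytokine TWEAK (36.2 against 0.794 CPM, 3.24), Phlda1 (2.02), the glutamate receptor gene Gria3 (1.41), Apoe (1642 against 1102 CPM, 0.42), Mt1 (0.75; DESeq2 adjusted p = 0.17) and Jun (0.94; without CLEAR_PS19 1 0.63, adjusted p = 0.058) were higher. Tnfrsf12a had only 2, 2, 0, 0, 0, 1 and 0 UMIs in C4b members and 16, 16, 1, 16, 1, 2 and 4 in Cdkn1a members. In these nuclei 7 of 24 myelin genes were lower and 1 was higher (Olig2, 0.65; list median −0.101). Trf was at 1275 against 2323 CPM and lower in 7 of 7 libraries (−0.76), Mobp, encoding myelin-associated oligodendrocyte basic protein, at 702 against 936 CPM (−0.39), and Ugt8a, which makes galactosylceramide, at 556 against 862 CPM (−0.58). Gsn (−0.85), Car2 (−0.54), Pcdh9 (−0.47) and the fatty acid synthesis gene Acaca (−0.59) fell as well, and 0 of 12 V-ATPase genes passed in edgeR (2 at an unadjusted p under 0.05, and 0 in DESeq2).

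Piezo2, Masp1 and Apod, higher in members with C4b or Cdkn1a than in Il33-only members, were lower in Cdkn1a members than in C4b members, and H2-D1 did not pass here (0.04). This and the comparison with Il33-only members share both Cdkn1a and C4b members, so their directions are not independent. Piezo2 was at 48.1 CPM in Cdkn1a members and 229 CPM in C4b members and lower in 7 of 7 libraries (−1.67). Masp1 was at 13.3 against 74.8 CPM (−1.74), Apod at 741 against 1504 CPM (−0.92), 9330111N05Rik at 88.0 against 404 CPM (−1.74), and the contactin gene Cntn3 at 95.6 against 277 CPM (−1.50). Adam11 (−1.76), Sema5a (−1.45) and the receptor kinase gene Alk (−1.36) were lower too. Genes with few UMIs in Cdkn1a members passed the filter mainly through C4b members and could hardly be called higher. Masp1 had 15, 24, 2, 3, 0, 11 and 0 UMIs in Cdkn1a members (PS19, then CLEAR_PS19), and Sema5a and Alk were alike. Piezo2 had 84, 104, 3, 2, 0, 60 and 1 UMIs there and 210, 266, 33, 8, 12, 225 and 5 in C4b members. The summed oligodendrocyte markers were lower in 7 of 7 libraries (16740 against 19179 CPM), and the microglial list had library medians of 118 against 162 CPM (higher in 2 of 7). The precursor list had medians of 42.0 against 103 CPM (higher in 1 of 7). The astrocyte list had medians of 78.7 against 255 CPM but was higher in 3 of 7 libraries, and its ranges overlapped (39.97 to 412 against 73.3 to 522 CPM). The neuronal list had medians of 399 against 378 CPM (higher in 5 of 7) and the vascular list 15.1 against 6.90 CPM (4 of 7), and the part of these cell types was not tested. Without CLEAR_PS19 3 the counts were 134 higher and 217 lower, and without PS19 1 or PS19 2, which hold most of the nuclei, 148 and 156 were higher.

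**Figure D3:**
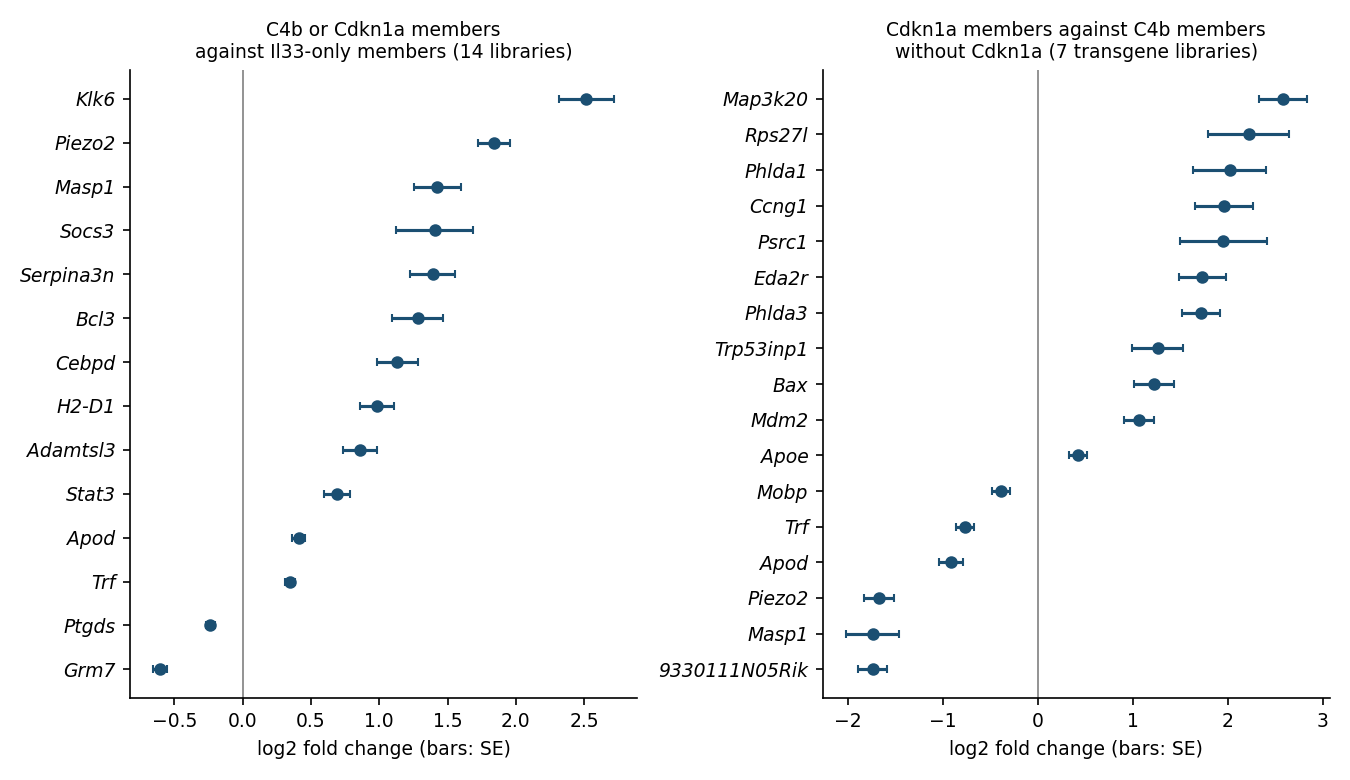
Log2 differences (x axis, with SE bars) of named genes between kinds of member nuclei; the left panel sets members with C4b or Cdkn1a against Il33-only members in 14 libraries, and the right panel sets Cdkn1a members against C4b members without Cdkn1a in the 7 transgene libraries. Piezo2 and Masp1 lie at 1.84 and 1.42 on the left and at −1.67 and −1.74 on the right, where Map3k20 (2.58) and the p53 target Ccng1 (1.96) lie on the other side of 0.

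The promoter of Cdkn1a is shown because p53 targets were higher beside it. RefSeq (GRCm38.p6) gives its upstream start with the window chr17:29090729-29091028, plus strand, from 250 bases before to 50 after the start. Capitals mark a pair of CATG cores 6 bases apart, the shape of a p53 binding site.

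Cdkn1a: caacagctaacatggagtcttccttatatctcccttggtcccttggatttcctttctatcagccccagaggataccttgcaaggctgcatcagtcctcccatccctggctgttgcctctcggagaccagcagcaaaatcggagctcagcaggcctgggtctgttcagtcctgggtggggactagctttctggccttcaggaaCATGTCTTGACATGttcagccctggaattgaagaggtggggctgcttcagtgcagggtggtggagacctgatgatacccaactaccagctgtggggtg

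The motif CATGNNNNNNCATG, which reads the same on both strands, was found in 234 of 32851 RefSeq promoter windows of this length (0.712%). It was not found in the windows of Mdm2, Phlda3, Ccng1, Eda2r, Bax or Map3k20, nor in that of a downstream start of Cdkn1a (chr17:29093519-29093818).

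Within the members, Serpina3n, Masp1, Parp3 and 4 of 7 MHC-I genes rose with the transgene. Averaged over CLEAR genotypes, edgeR called 82 genes higher and 31 lower with it of 11849 (0.954%; 0.692% higher, 0.262% lower; median over all genes 0.001). DESeq2 called 134 higher and 82 lower, and edgeR with library set as a covariate 360 higher and 253 lower, and without PS19 1, PS19 2, WT 1 or WT 2 only 12, 14, 15 and 13 were lower. Serpina3n was at 1.09, 1.49 and 0.89 CPM in members of WT mice, 33.2, 44.6 and 28.6 in those of PS19 mice, 7.80, 9.13, 3.20 and 1.17 in CLEAR mice and 25.4, 30.0, 42.4 and 19.97 in CLEAR_PS19 mice. All 7 transgene libraries lay above the 7 others (log2 fold change 3.70, SE 0.29; adjusted p = 2e-05). H2-D1 was at 10.3, 2.98 and 9.74 CPM in WT mice, 83.2, 102 and 33.7 in PS19 mice, 14.1, 20.6, 7.99 and 7.60 in CLEAR mice and 68.4, 55.5, 53.01 and 22.97 in CLEAR_PS19 mice. These did not overlap either (2.58, SE 0.25; adjusted p = 5.5e-05). Masp1 was at 8.15, 3.72 and 4.43 CPM in WT mice, 30.2, 40.3 and 55.6 in PS19 mice, 8.29, 8.17, 9.06 and 8.18 in CLEAR mice and 32.2, 34.0, 49.5 and 29.0 in CLEAR_PS19 mice. Parp3, which acts in DNA repair, was at 4.89, 2.98 and 1.77 CPM in WT mice, 85.9, 63.6 and 29.5 in PS19 mice, 4.88, 6.24, 5.33 and 4.68 in CLEAR mice and 19.1, 23.3, 55.1 and 13.98 in CLEAR_PS19 mice. Both genes were higher in every transgene library than in any other (Masp1 2.49, Parp3 3.27). Klk6 was at 2.72, 0.74 and 0.89 CPM in WT mice, 16.8, 28.5 and 19.4 in PS19 mice, 8.29, 4.80, 2.66 and 9.35 in CLEAR mice and 40.1, 48.4, 29.6 and 9.99 in CLEAR_PS19 mice. CLEAR_PS19 4 lay only just above CLEAR 4 (3.05, SE 0.38; adjusted p = 0.00065).

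The intergenic noncoding gene Gm43049 (chr3:140692038-140760704) had 0 UMIs in all 7 libraries without the transgene. It was at 27.0, 15.8 and 20.6 CPM in PS19 members and 14.1, 18.5, 18.6 and 24.0 in CLEAR_PS19 members (317 and 224 counts). Against a floor of 3 counts over each group without the transgene, this was at least 31.0-fold higher in PS19 than in WT and at least 44.9-fold higher in CLEAR_PS19 than in CLEAR. Why Gm43049 was counted only with the transgene, and whether this is a response of oligodendrocytes, was not tested. Of the 7 MHC-I genes tested, 4 rose (median 1.81), namely H2-D1, H2-K1 (1.81), the light chain gene B2m (2.02) and Nlrc5 (3.54). Interferon genes rose in 4 of 10 cases (median 0.687): Irf9 by 1.74, Usp18 by 2.41, Eif2ak2 by 1.55 and Herc6 by 1.08. Genes near 0 without the transgene passed the filter on expression only through transgene libraries, and could only be called higher. Usp18 (4, 1 and 1 counts in WT), Nlrc5 (0, 2 and 2) and Socs3 (1, 0 and 0) are of that kind. The list counts and medians of this fit depend on that filter. With 1 library left out, Eif2ak2 passed in 5 of 14 fits and Herc6 in 3 of 14, and Herc6 did not pass after thinning (edgeR adjusted p = 0.22). Of the disease-associated list 7 of 20 rose and 0 fell (median 0.790), Anxa2 by 1.88 among them. Bcl3 rose by 3.45, Socs3 by 4.32 and Cebpd by 1.21, the 3 of 14 genes called in the cytokine list (median 0.374). Socs3 rests on 1 count in WT, and PS19, without the CLEAR libraries, stood at 75.4 times WT (95% counting interval 13.4 to 2988). That interval leaves out the spread between libraries (114, 135 and 8 counts in PS19). Of the p53 list 1 of 20 genes rose, Gadd45a by 1.85 (median 0.479), and Eda2r (1.07, adjusted p = 0.053) and Phlda3 (0.93, adjusted p = 0.061) did not pass; with the replicate block Phlda3 did (0.94, edgeR adjusted p = 0.012).

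Fbn2 was lower with the transgene, at 115, 162 and 143 CPM in WT mice, 43.0, 41.3 and 59.4 in PS19 mice, 87.8, 94.6, 102 and 114 in CLEAR mice and 91.1, 107, 71.6 and 71.9 in CLEAR_PS19 mice (−0.88; adjusted p = 0.0018). PS19 lay well below all the others, and CLEAR_PS19 overlapped CLEAR. Gabrr2, a GABA receptor subunit gene, was at 60.8, 63.3 and 61.1 CPM in WT mice, 28.9, 36.2 and 48.0 in PS19 mice, 60.0, 52.4, 70.4 and 62.6 in CLEAR mice and 37.5, 35.1, 30.8 and 44.9 in CLEAR_PS19 mice, with no overlap between libraries with and without the transgene (−0.75). Jph1 (−0.53), Clic5 (−1.30), Acss1 (−1.33), 1700063D05Rik (−1.32) and the astrocyte connexin gene Gja1 (−1.33) fell as well. Of 24 myelin, 25 sterol, 19 V-ATPase and 29 lysosomal genes, edgeR and DESeq2 called 0 in each list (4, 4, 2 and 7 at an unadjusted p under 0.05 in edgeR; the myelin median was 0.007 and the lysosomal 0.139). Mouse Prnp, whose promoter drives the transgene, was at 128, 164, 163 and 244 CPM in WT, PS19, CLEAR and CLEAR_PS19 members (0.46, adjusted p = 0.22), and mouse Mapt at 1858, 2039, 1742 and 1743 CPM (0.07, adjusted p = 0.91).

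**Figure D4:**
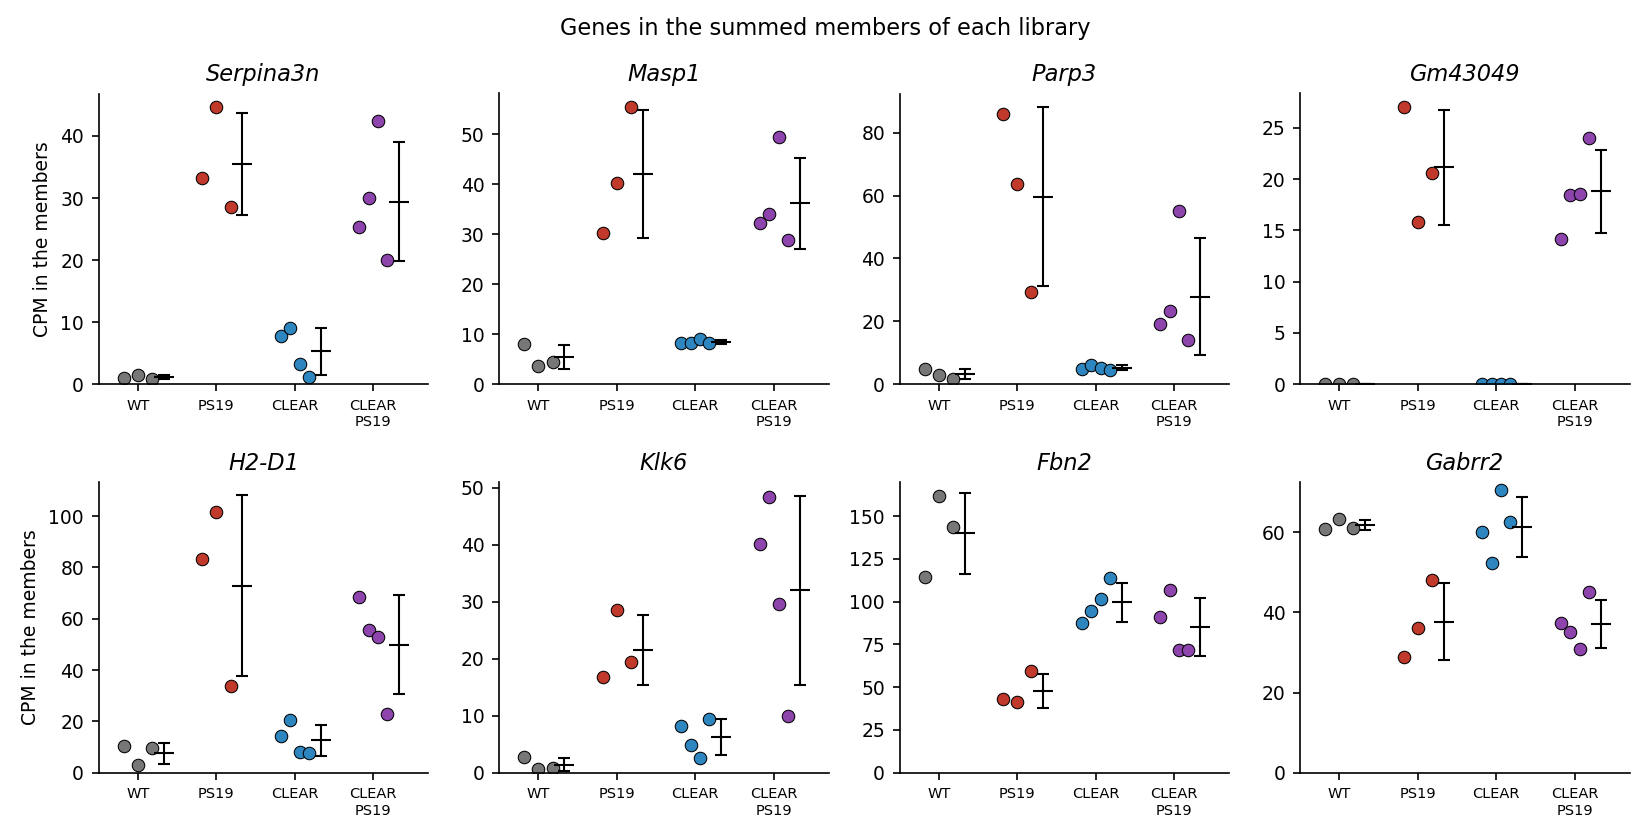
CPM (y axis) of 8 genes in the summed members of each library by genotype (x axis); points are libraries and bars give the mean and SD. Serpina3n, Masp1, Parp3, Gm43049 and H2-D1 separate transgene libraries from the rest, and Fbn2 is lowest in PS19 (41.3 to 59.4 CPM).

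Since members of PS19 held more C4b nuclei than those of WT, the transgene fit was repeated on Il33-only members, an alternative added after the data were seen. It called 16 genes higher and 4 lower of 11005 (0.182%). A nucleus without a C4b UMI at these depths may still express C4b, so Il33-only members do not fully remove the difference in makeup. Serpina3n (2.88), Masp1 (2.11), Parp3 (2.41), H2-D1 (2.19), Bcl3 (3.17), H2-K1 (1.69) and B2m (1.86) passed there too, as did Gm43049, Clic5, 1700063D05Rik and Acss1. Klk6 (1.60, adjusted p = 0.21) and Fbn2 (−0.64, adjusted p = 0.077) did not, nor did Nlrc5, Irf9 and Cebpd. The complement list rose in 3 of 6 genes, C1qa (1.77), C1qb (1.60) and C1qc (1.28), which encode the C1q subunits and are made in brain by microglia, and the microglial protease gene Ctss rose by 1.80. In Il33-only members C1qa (1.81), C1qb (1.34) and Ctss (1.76) passed as well. Beside them, the summed microglial markers were at 65.9 to 84.3 CPM in WT members, 129 to 159 in PS19, 49.5 to 94.1 in CLEAR and 96.9 to 155 in CLEAR_PS19. In other mature nuclei of the same groups they were at 69.3 to 94.1, 144 to 180, 65.1 to 112 and 88.6 to 179 CPM, against 5879 to 10121 CPM in microglia. In members these levels did not overlap between libraries with and without the transgene. They stand beside the rises of MHC-I, interferon and disease-associated genes as well, and the part of microglial RNA in any of these rises was not tested. Gfap (0.84, adjusted p = 0.40) and Aqp4 (−0.30, adjusted p = 0.92) did not pass.

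The promoter of Socs3 is printed because Socs3 and Stat3 were higher in members, and in capitals is the STAT-type motif that its window holds (RefSeq, GRCm38.p6, chr11:117969317-117969616, minus strand).

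Socs3: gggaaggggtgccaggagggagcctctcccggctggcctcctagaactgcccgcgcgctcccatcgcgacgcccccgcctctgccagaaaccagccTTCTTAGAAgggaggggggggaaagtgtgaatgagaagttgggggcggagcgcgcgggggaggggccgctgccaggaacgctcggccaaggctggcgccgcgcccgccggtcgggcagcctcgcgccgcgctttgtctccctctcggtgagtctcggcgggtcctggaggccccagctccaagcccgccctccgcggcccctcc

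The motif TTCNNNGAA, also the same on both strands, was found in 2726 of 32851 promoter windows (8.30%). It was not found in the windows of Serpina3n, Bcl3, H2-D1, Klk6, Il33 or Cdkn1a, and the Socs3 window did not hold the CATG pair. Of 18 genes looked up, 13 had an entry.

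In the members, the main edgeR fit called 1 gene for the CLEAR mutation. This does not show that no other gene changed, and the fit with replicate number as a block called many more. The mutation was also in part confounded with library set. Atp6v1h was at 88.5, 84.9 and 103 CPM in WT mice, 138, 113 and 86.7 in PS19 mice, 18.5, 10.1, 18.7 and 13.4 in CLEAR mice and 17.8, 23.7, 33.9 and 22.0 in CLEAR_PS19 mice. Every library with the mutation lay below every library without it (−2.41, SE 0.17; edgeR adjusted p = 2.5e-06), and this was the only call of 11849 (0.00844%; 1743 at an unadjusted p under 0.05). Within CLEAR genotypes, the transgene fit called 45 genes higher and 10 lower in PS19 against WT (0.464%) and 9 higher and 0 lower in CLEAR_PS19 against CLEAR (0.076%). Serpina3n rose by 4.94 and 2.45, H2-D1 by 3.19 and 1.97, and Klk6 by 3.74 and 2.35 in these contrasts. The difference between them was called for 0 genes by edgeR (379 at an unadjusted p under 0.05) and for 1 by DESeq2, Fbn2 (1.37, adjusted p = 0.0067; edgeR 1.36, adjusted p = 0.75). The term for Serpina3n was −2.49 (edgeR unadjusted p = 0.0025, adjusted p = 1), and it was below 0 for H2-D1 (−1.22), Parp3 (−1.74) and Klk6 (−1.39). Of the 20 tested disease-associated genes, 1 had a term above 0 (median −0.873, against 0.014 over all genes), and 0 passed in edgeR or DESeq2 (5 at an unadjusted p under 0.05 in edgeR).

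The bulk libraries gave the 3 genes at 2 ages in whole hippocampus, where fewer cells of a type and less RNA per cell cannot be told apart. At 9 months C4b was at 69.2, 95.8, 96.7, 80.3 and 119 CPM in WT and 390, 367, 424 and 543 in PS19, without overlap (log2 fold change 2.22, SE 0.21; edgeR adjusted p = 1.2e-07, in a fit that called 12.8% of 16133 genes, 7.68% higher and 5.09% lower). Cdkn1a was at 7.49, 8.07, 14.1, 5.85 and 8.84 CPM in WT and 25.5, 23.4, 26.3 and 12.1 in PS19, where the lowest PS19 library lay under the highest WT library and where reads of the gene on the opposite strand cannot be told apart (1.29, SE 0.31; adjusted p = 0.0068). Il33 was at 54.1, 61.4, 50.6, 44.8 and 54.1 CPM in WT and 62.8, 74.2, 81.8 and 94.9 in PS19, without overlap (0.57, SE 0.12; adjusted p = 0.0029). At 4 months none of the 3 passed the edgeR test, in a fit that called 0.0186% of genes (C4b −0.24, Il33 0.21, Cdkn1a −0.49). Il33 was then at 41.5 ± 5.91 CPM in WT and 48.1 ± 6.39 in PS19 (SD, n = 6 each). The change with the transgene differed between the ages for C4b (2.46; edgeR adjusted p = 4.5e-06) and Cdkn1a (1.78; adjusted p = 0.010) but did not pass for Il33 (0.36; adjusted p = 0.24), where 5.41% of genes were called.

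Several genes named above were also measured in bulk. At 9 months Serpina3n rose by 2.28, Klk6 by 2.29 and Socs3 by 2.29, and the disease-associated list gave 19 genes higher and 1 lower of 22 (median 1.089), against 0 of 22 at 4 months by edgeR and DESeq2 (2 at an unadjusted p under 0.05, median −0.021). H2-D1 rose by 1.91 (adjusted p = 0.018), and without PS19 replicate 5 its change was 1.31 (adjusted p = 0.15). The age terms of Serpina3n and Klk6 were 2.12 and 2.08. C4a did not pass (0.08). Beside these, 7 of 7 microglial markers (median 1.062), 5 of 7 astrocyte markers, Gfap (2.51) among them, 15 of 24 myelin genes (median 0.332) and 4 of 10 oligodendrocyte markers (median 0.286) rose at 9 months. The part of each cell type in the bulk changes was not tested.

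**Figure D5:**
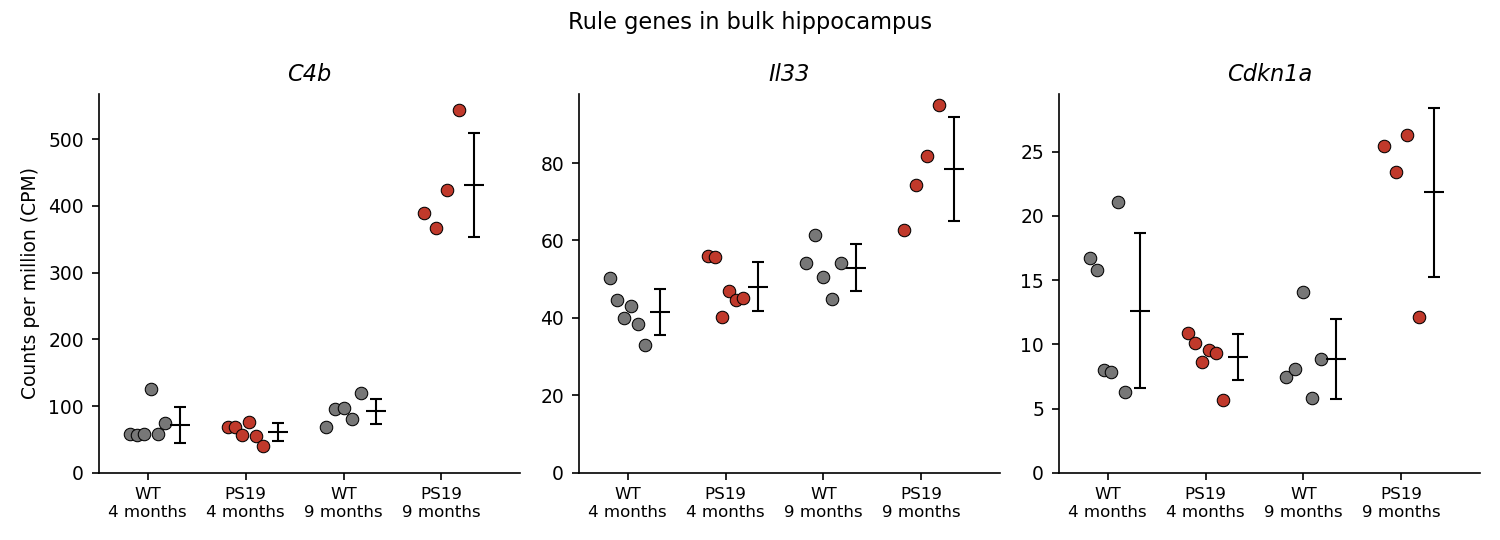
CPM of C4b, Il33 and Cdkn1a (y axis) in whole-hippocampus bulk RNA-seq of WT and PS19 mice at 4 and 9 months (x axis); points are libraries and bars give the mean and SD. C4b reaches 367 to 543 CPM in PS19 at 9 months and 39.6 to 126 CPM in the 12 libraries at 4 months.

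Among the 7 transgene libraries, the share of mature oligodendrocytes that were members went with the share of barcodes that were microglia. Microglia were 7.2%, 10.8% and 6.2% of barcodes in PS19 and 4.6%, 2.8%, 7.9% and 4.7% in CLEAR_PS19. Pearson's r was 0.902 (permutation p = 0.0038, adjusted over both cell types 0.0075) and Spearman's rho 0.857 (permutation p = 0.024, adjusted 0.048), over libraries that also differ in CLEAR genotype and library set. With 1 library left out r was 0.881 to 0.933 (permutation, adjusted p = 0.0083 to 0.044), and rho passed only without CLEAR_PS19 4 (0.943, adjusted p = 0.033; 0.067 to 0.206 in the other cases). Without PS19 2 and CLEAR_PS19 2, the libraries farthest from the median, r was 0.926 over 5 libraries (exact permutation p = 0.067, adjusted 0.133). For astrocytes r was 0.556 (permutation p = 0.18) and rho 0.536.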

How the data were processed

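Nuclei were profiled with 10x single-nucleus RNA-seq (14 libraries) and whole hippocampus with bulk RNA-seq (21 libraries). Per the file headers and the submitters' processing notes, the authors made the deposited UMI counts with Cell Ranger (5.0.1) on mm10. The deposited bulk values are read counts of genes, made with featureCounts 2.0.0 without strand per the header of 1 of 21 files; cutadapt, STAR and DESeq2 are also named in the submitters' processing notes. All tests used these counts.

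Members were found by the counts rule and summed per library. edgeR (4.0.16, TMM, filterByExpr, quasi-likelihood) tested sums, with library as a block within libraries and sex as a covariate between genotypes. DESeq2 (1.42.0) was an alternative. Calls needed an adjusted p (Benjamini-Hochberg over all tested genes) under 0.05. The 13 genes used by the rule were left out of comparisons between kinds of nuclei. Within a library, nuclei were paired by nearest total UMIs, without reuse. Where members outnumbered others (PS19 1 and 2, CLEAR_PS19 3) the smaller set was matched whole; in PS19 3 member medians were 2019 against 1769 UMIs and in CLEAR_PS19 1 2309 against 2122. Doublets, called by Scrublet's top scores at 0.8% per 1000 nuclei, were kept in the main fits (0.96% to 8.84% of members and 1.29% to 6.94% of other mature nuclei were called). Shares were compared by exact permutation over libraries, and thinned values drew 1500 UMIs per nucleus. Fits were tested on simulated data with 200 genes changed by 1 on the log2 scale: the fits of members against others, of Cdkn1a against C4b members and of the transgene in members recovered 94.0%, 91.5% and 83.0% of them, with 11, 12 and 13 false calls.

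Named genes are the rule's genes and Mog, Mag and St18, up to 12 genes a direction with the largest called difference at 20 CPM or more and 1 direction in at least 12 of 14 libraries (members against others), up to 8 a direction with the smallest adjusted p (genotype fits), up to 4 per gene list with the smallest p, and Atp6v1h, Prnp and Mapt. Where the text says so, a gene was named after its values were seen, and of the genes the rule gives those that passed few alternatives were left out. Some genes are not reported here and were left out of the lists. The members and lists were chosen with earlier results of these data known. Profiles of same-numbered libraries with and without the transgene deviated together (correlations 0.276 to 0.533 for WT and PS19, 0.603 to 0.664 for CLEAR and CLEAR_PS19). These libraries also shared a library set, so pairing by number is only in part separable from set. The main transgene tests did not use it. For the CLEAR mutation and in bulk same-numbered libraries did not all deviate together. Alternatives were other thresholds and depths, doublets or astrocyte-marked nuclei left out, other tools and scalings, library sets and each library left out.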

Additional observations from a re-analysis of the deposited data

Results flagged for a closer look

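In CLEAR, library 3 stood apart from the other 3 libraries in C4b measures. Mature nuclei with at least 2 UMIs of C4b and Cdkn1a were 0.793% there (3.19% to 3.40% in the others), thinned mature nuclei with C4b 3.2% (8.34% to 9.40%), members with C4b 10.1% (22.8% to 24.6%), Il33-only members 89.6% (75.1% to 76.9%), and C4b in mature nuclei 24.3 CPM (75.4 to 77.8). In its members Masp1 was at 9.06 CPM and C1qb at 6.40 CPM, outside the 8.17 to 8.29 CPM of the others for both. These values rest on few molecules, namely 17, 17, 17 and 14 UMIs of Masp1 and 17, 17, 12 and 14 of C1qb in CLEAR 1 to 4. CLEAR 3 is the only CLEAR library of set 1, which also holds 2 of the 3 WT libraries. CLEAR 4, the female, stood apart for members with Cdkn1a (2.32% against 0.229% to 0.439%), Cdkn1a in mature nuclei (4.67 CPM) and Acss1 in members (18.7 CPM).

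In CLEAR_PS19, library 3 stood on the PS19 side of its group. A C4b UMI was found in 31.4% of its thinned mature nuclei (16.2% to 17.0% in the others), Il33 in 91.4% of its members and Il33 alone in 31.6% (60.1% to 64.9%). C4b was at 283 CPM in its mature nuclei (133 to 154), and Bcl3 at 48.0 CPM (10.99 to 17.3) and Gfap at 14.9 CPM (4.99 to 5.24) in its members. It is again the only CLEAR_PS19 library of set 1. CLEAR_PS19 4 had C1qa at 11.98 CPM, apart from its group. In bulk, Klk6 was at 0.975 CPM in WT 4 and 21.3 CPM in PS19 5 at 9 months and at 2.87 CPM in PS19 4 at 4 months, H2-D1 at 7.57 CPM in WT 5 at 9 months and 82.7 CPM in WT 4 at 4 months, and C4b at 126 CPM in that last library. Chance alone gives about 1 such flag in 20 of the 130 groups looked at.

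The change with the transgene differed with the CLEAR mutation for the thinned share of members (−17.5 percentage points, within library sets −10.2), and for the thinned shares of mature nuclei with C4b (−20.5; within sets −12.9, exact permutation p = 0.083) and Il33 (−8.66; within sets −6.25, exact permutation p = 0.083), the last 2 not passing within sets. In bulk it differed between 9 and 4 months for C4b (2.46 on the log2 scale), Cdkn1a (1.78), Serpina3n (2.12) and Klk6 (2.08). The difference between members and other mature nuclei changed with the transgene for Trf (0.25), Bmpr1b (2.98), Piezo2 (1.16), Dgki (0.25), Tulp4 (0.24), Neat1 (0.23), Klk6 (1.57) and Fbn2 (−0.61). Bmpr1b did not pass without called doublets (1.68, adjusted p = 0.86), nor Klk6 and Fbn2 in DESeq2 (adjusted p = 0.061 each).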

How the results depend on the processing

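Of the values recomputed, 3907 kept their direction and their side of the threshold, 153 lost it, 63 gained it and 10 changed sign; the cause was not tested where no value shows it. The transgene difference in the share passed when nuclei were thinned (17.1 points), with at least 1000 genes (20.6), with Il33 left out (18.6) and within sets for the last and the thinned share (17.2 and 15.85); with each library left out it was 14.7 to 21.9, passing without PS19 3 (21.9) or CLEAR_PS19 4 (20.3). The CLEAR-by-transgene term of the share passed when thinned (−17.5, within sets −10.2) and with 1000 genes (−21.7). With a library left out this term was −30.8 to −18.8, passing without PS19 3 (−30.7) or CLEAR_PS19 3 (−30.8). The CLEAR difference over both transgene genotypes did not pass when thinned (−2.16, exact permutation p = 0.54) or with 1000 genes (−4.11, exact permutation p = 0.41). Members against others gave 285 higher and 323 lower genes in DESeq2, 371 and 357 when thinned, 281 and 331 without set 3, and 475 to 607 and 497 to 606 with a library left out.

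Its change with the transgene gave 6 and 0 in DESeq2, 28 and 12 against all other nuclei, 25 and 11 without doublets, 49 and 51 with no filter, 18 lower when thinned, 25 and 14 without set 3, and 7 to 30 and 1 to 23 with a library left out. C4b or Cdkn1a against Il33-only members gave 128 and 143 in DESeq2, 344 lower against all nuclei, 89 and 117 without set 3, and 140 to 204 and 166 to 249 with a library left out. Cdkn1a against C4b members gave 134 to 219 and 217 to 469 with a library left out. The transgene in members gave 134 and 82 in DESeq2, 360 and 253 with library set, 16 and 4 in Il33-only members, 15 lower without the sex covariate, and 59 to 102 and 12 to 46 with a library left out.

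With the replicate block the transgene gave 104 higher and 40 lower in members, its share difference had an adjusted p of 0.156, and the CLEAR mutation gave 737 and 404. The block let Phlda3 pass in members (0.94) and ended the call of H2-D1 in bulk at 9 months (1.76), and for the transgene and in bulk it changed no other call of a gene named in the text. Same-numbered libraries deviated together for the transgene only, where they also share a library set (for the CLEAR mutation correlations ran from −0.431 to 0.338). Without CLEAR_PS19 3 the mutation gave 1 higher gene, and DESeq2 gave 1 higher gene for its interaction. In mature nuclei Il33 passed for the transgene in DESeq2 (0.33) and with library set (0.32). For the CLEAR mutation, changes near 0 turned sign: with a library left out C4b was −0.085 (without WT 2; −0.044 without CLEAR_PS19 3) to 0.29, Il33 −0.022 (without CLEAR_PS19 4; −0.017 without PS19 3) to 0.086 and Cdkn1a −0.17 (without CLEAR 4) to 0.67, and Il33 was −0.018 with the replicate block. In bulk with a library left out, C4a was −0.14 (without PS19 1; −0.040 without WT 3) to 0.25 at 9 months, and at 4 months Klk6 was −0.058 (without PS19 4) to 0.32 and H2-D1 −0.58 to 0.29 (without WT 4).

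The C4b difference beside the other genes was 0.00107 UMIs per 10000 without the transgene. That of Il33 was 0.516 without the transgene, 0.672 against all others, 0.983 without doublets and 0.899 to 1.37 with a library left out, not passing without WT 3 (0.899), CLEAR_PS19 1 (1.05) or CLEAR_PS19 4 (0.926). That of Cdkn1a was −0.0404 with the transgene, −0.0022 without it and −0.0279 to −0.00992 with a library left out, passing without CLEAR_PS19 3. The microglia relation was 0.926 without 2 libraries. Counts are sparse: members held a median of 1446 to 3044 UMIs, so a gene near 1 CPM rests on few molecules. In the smallest sums of Cdkn1a members far higher values do too (Map3k20 at 102 CPM in CLEAR_PS19 4 is 5 UMIs). With 3 or 4 libraries a group, split over library sets, every genotype comparison is limited.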
